A study of Rattus norvegicus with 5 samples.

Results

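The genes followed here encode secreted growth factors, with the receptors and binding proteins that receive them, of 4 families: the fibroblast growth factors (FGF), the platelet-derived growth factors (PDGF), the vascular endothelial growth factors (VEGF) and the insulin-like growth factors (IGF). Members were chosen by gene symbol from the gene-level table: secreted FGFs and their receptors, PDGF ligands and receptors, Vegfb to Vegfd with Flt1, Kdr and Flt4, and the IGF ligands, receptors and binding proteins. The 4 intracellular FGF homologues Fgf11 to Fgf14 were left out. This gave 45 of the 33014 genes in the table: 22 of the FGF family, 6 of the PDGF family, 6 of the VEGF family and 11 of the IGF family.

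Most of these factors act on neighbouring cells by bringing receptor tyrosine kinases together at the cell surface, which switches on the Ras-MAP kinase and PI3 kinase pathways. FGFs do so with heparan sulfate as a cofactor, PDGFs are dimers that act mainly on fibroblasts, pericytes and smooth muscle, and VEGFs act mainly on blood and lymphatic endothelium. IGFs are held in the extracellular fluid by binding proteins, which limit or deliver them to their receptor. In peripheral ganglia and nerves these families are known for effects on neuron survival, axon growth, glial division and the fibroblast and vessel coverings.

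The libraries came from dissociated dorsal root ganglia (DRG), which flank the spinal cord and hold the cell bodies of sensory neurons with their glia. Donor animals were wild-type Sprague Dawley rats at postnatal day 10, and the ganglia of a litter of 10 pups were combined before plating. All 5 libraries carry the same labels: cells seeded at 5000 per well, given PBS (a saline vehicle) at day 1, and collected at day 8 of culture with 3 wells in each sample. There was therefore 1 group, with replicates 1 to 5, and the labels do not say that replicates came from separate cell preparations, so p-values measure only a spread that may be technical. With no contrast between conditions, comparisons are between genes within a library.

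Levels are in TPM, the estimated reads of a gene divided by its length and scaled to the same total in each library, and errors are SDs over the 5 libraries unless stated otherwise. Libraries held 21596608 to 27913098 estimated reads. Marker lists of the neurons, both glial types, fibroblasts and macrophages of a ganglion were detected in full, 25 of 25 genes, with summed levels of 5364 to 5734 TPM for the neuronal list and 1669 to 1718 TPM for the fibroblast list. The macrophage list was lowest in replicate 2, at 1159 TPM, and between 1548 and 1834 TPM in the others. A mural and smooth muscle list was at 738, 700, 598, 560 and 511 TPM in replicates 1 to 5. These are bulk libraries, so fewer cells of a type and less RNA per cell cannot be told apart.

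A gene was called detected where it reached 1 TPM in every library. By that rule 27 of the 45 members were detected, beside 41.3% of all genes in the table. Detection was uneven between families: 10 of 11 IGF members, 5 of 6 PDGF members, 10 of 22 FGF members and 2 of 6 VEGF members. The detected members had a median level of 27.4 TPM, beside 20.5 TPM over all detected genes, while 16 of them (59.3%) reached a mean of 10 TPM, beside 69.1% of all detected genes. Binding proteins of the IGF family stood at the top, and the VEGF receptors, Fgfr4, Igfbp1 and 9 of the 18 FGF ligands at the bottom.

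**Figure D1:**
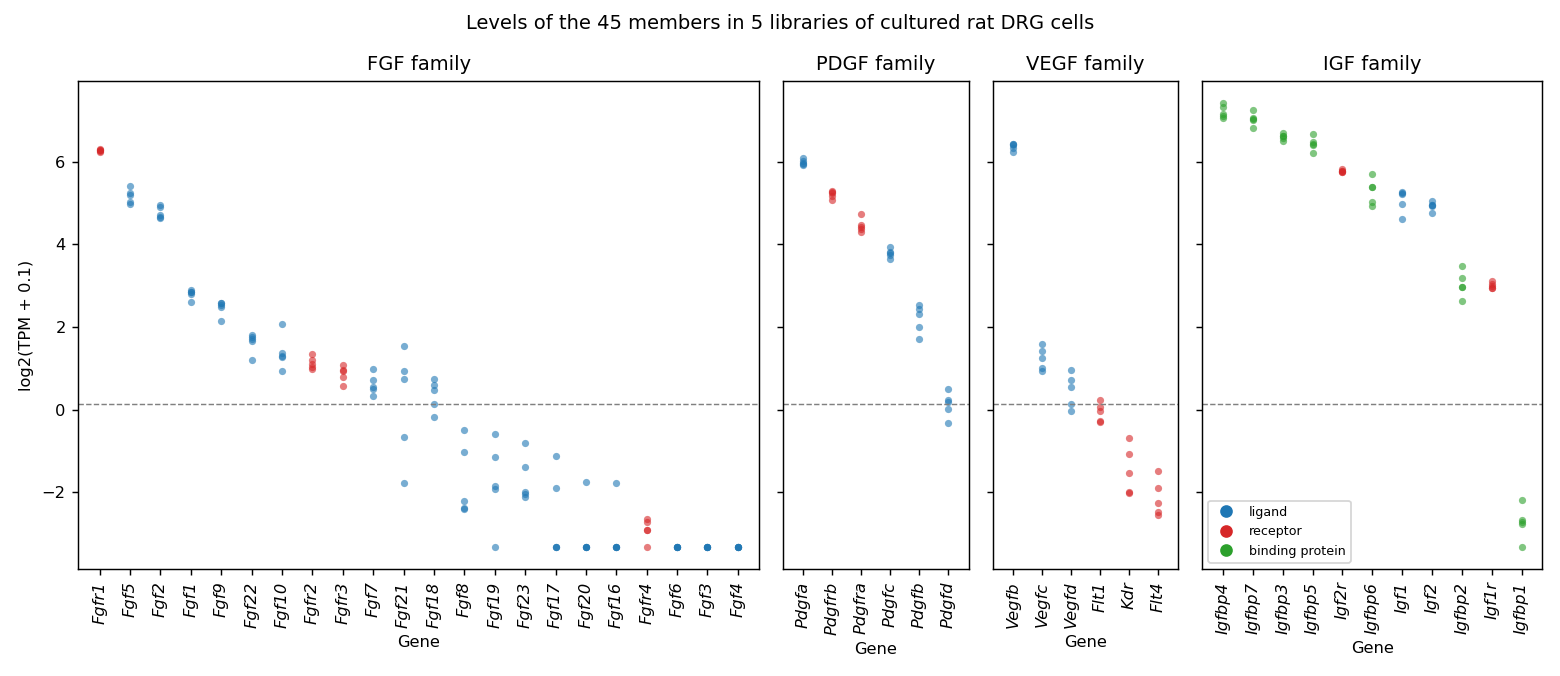
Level of each of the 45 members as log2(TPM + 0.1), 1 point per library, ordered by mean within each family; blue points are ligands, red receptors and green binding proteins, and the dashed line marks 1 TPM. The 3 genes along the lower edge in the FGF panel in all libraries, Fgf3, Fgf4 and Fgf6, had no reads, while Igfbp4 and Igfbp7 lay above 100 TPM in all 5 libraries.

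Among the FGF ligands, 7 of 18 were detected, and Fgf5 and Fgf2 held most of the summed ligand level in TPM. Fgf5, known as a regulator of the hair growth cycle, was at 42.6, 37.6, 31.6, 32.4 and 36.5 TPM in replicates 1 to 5. Fgf2, the basic FGF that supports neurons and drives glial and fibroblast division, was at 24.9, 31.0, 30.0, 25.3 and 26.0 TPM. Fgf5 was the higher of the pair in all 5 libraries, by 1.05-fold in the closest of them and 1.71-fold in the widest, and the ranges of the 2 genes did not overlap. That order turned when only transcripts with a known gene name were summed, to a log2 ratio of -0.07. Fgf5 alone made up 41.8% ± 4.56 of the summed FGF ligand level of 86.5 ± 4.23 TPM (SD, n = 5). Without division by length, Fgf1 was the highest ligand over all libraries, with 2031 estimated reads beside 1659 for Fgf5 and 1538 for Fgf2. The leading Fgf5 transcript has 801 bases.

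Fgf1, the acidic FGF found in sensory neurons, followed at 6.85 ± 0.529 TPM, and was 3.43- to 4.32-fold below Fgf2 in TPM. In estimated reads scaled to library size but not divided by length, called scaled reads below, Fgf1 was the higher, with a log2 ratio of 0.39: its leading transcript has 4213 bases and that of Fgf2 has 1016. Fgf9, known as glia-activating factor, was at 5.46 ± 0.634 TPM, with replicate 1 lowest at 4.36 TPM. Next came 3 ligands of one subfamily, which signal mainly through an epithelial form of Fgfr2 and, for Fgf22 and Fgf7, are known as organisers of presynaptic endings. Fgf22 was at 3.03 ± 0.479 TPM, Fgf10 at 2.61 ± 0.884 TPM and Fgf7 at 1.45 ± 0.276 TPM. Adjacent genes in this run of 3 overlapped in range, and Fgf7 exceeded Fgf10 in 1 of 5 libraries. The Fgf10 value rests on 75 estimated reads over all libraries, and its gene model has only 648 bases. In scaled reads Fgf7, with a transcript of 3822 bases, was above Fgf10 by 2.20 on the log2 scale.

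Another 2 ligands had a mean above 1 TPM without reaching it in every library. Fgf18, a skeletal growth factor, was at 1.41, 1.56, 1.30, 1.00 and 0.788 TPM in replicates 1 to 5. Fgf21, an endocrine FGF better known from liver, was at 0.529, 0.189, 2.82, 1.56 and 1.80 TPM, a 14.9-fold span on 37.8 estimated reads in all. Replicates 1 and 2 were the low libraries for Fgf21. The remaining 9 ligands were below 0.27 TPM on average: Fgf8, Fgf19, Fgf23, Fgf17, Fgf20 and Fgf16 had between 1 and 11 reads over the 5 libraries, and Fgf3, Fgf4 and Fgf6 had none. For those 3, a total of 3 reads would correspond to 0.0843, 0.0143 and 0.109 TPM, so higher levels were not seen, counting error alone considered. In the gene order of the newer rat assembly GRCr8, Fgf3, Fgf4 and Fgf19 are consecutive protein-coding genes and so are Fgf6 and Fgf23. None of these 5 was detected, but neither were 11 of all 18 FGF ligands, and only 41.3% of all genes were.

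FGF receptor transcript was nearly all Fgfr1, the receptor that binds the widest range of these ligands in mesenchymal and neural cells. Fgfr1 was at 76.5, 77.3, 77.5, 79.5 and 75.1 TPM in replicates 1 to 5, one of the steadiest members. Fgfr2 was at 2.11 ± 0.231 TPM and Fgfr3, which marks glial lineages in the brain, at 1.73 ± 0.242 TPM. Fgfr2 was above Fgfr3 in 4 of 5 libraries, and their ranges overlapped. Fgfr4 was not detected, at 0.0357 TPM with an exact Poisson 95% interval of 0.0144 to 0.0736 TPM. The share of Fgfr1 in the summed receptor level was 95.2% ± 0.314 (SD, n = 5).

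Each family was set against 1 of its receptors by taking the log2 ratio to that receptor within each library and testing it against 0 with limma over the 18987 genes with a mean of at least 0.1 TPM. Against Fgfr1, all 15 FGF members that entered the test were lower at an adjusted p under 0.05 and 0 were higher; over all genes tested, 87.5% were lower and 11.4% higher. The count therefore follows from the high rank of Fgfr1 itself, above 93.1% of the genes in the table. Fgf5 was the closest, 2.14-fold below Fgfr1 (log2 ratio -1.10 ± 0.0642, SE, limma adjusted p = 1.13e-07), followed by Fgf2 at 2.82-fold. Fgfr2 and Fgfr3 were 35.1-fold and 42.5-fold below it. Ratios to one gene share the spread of that gene, so these p-values are too small; with each gene's own spread, all 15 calls were kept.

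**Figure D2:**
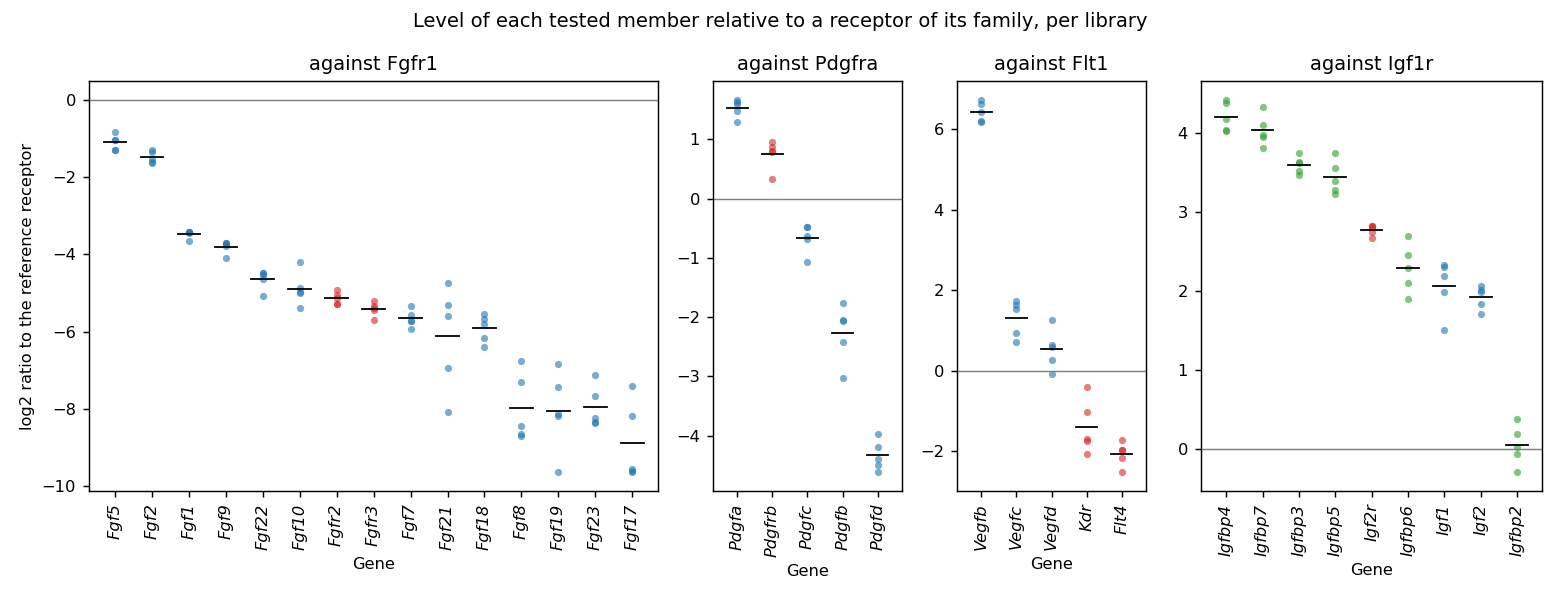
Log2 ratio of each tested member to a receptor of its family (Fgfr1, Pdgfra, Flt1 or Igf1r), 1 point per library with the mean as a black bar; blue points are ligands, red receptors and green binding proteins, and 0 means equal TPM. All FGF points lie below 0, the IGF members other than Igfbp2 lie above 0, and Vegfb lies 6.43 log2 units above Flt1 on average.

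Genes that act with the FGF receptors were measured as lists, whose counts stand beside 41.3% of all genes in the table detected. Of 11 FGF partners 7 were detected, led by Flrt3 at 135 ± 2.46 TPM and Flrt2 at 9.40 ± 0.516 TPM, membrane proteins that bind FGF receptors, and by the adaptor Frs2 at 14.6 ± 0.638 TPM. The co-receptors of the endocrine FGFs were near 0, Klb at 0.168 ± 0.0724 TPM and Kl at 0.0807 ± 0.0493 TPM, as was the carrier protein Fgfbp1 at 0.0398 ± 0.0555 TPM. All 11 feedback and target genes were detected, among them the inhibitor Spry2 at 65.8 ± 3.31 TPM, the ERK phosphatase Dusp6 at 39.0 ± 1.79 TPM and the transcription factor Etv5 at 36.4 ± 1.64 TPM. Whether FGF receptors set these levels was not tested. Of 16 heparan sulfate carriers and enzymes 15 were detected, with the carriers Gpc1 at 229 ± 9.33 TPM, Sdc3 at 151 ± 10.5 TPM and Sdc4 at 120 ± 7.95 TPM highest. Gpc5, at 0.957 ± 0.236 TPM, was the exception. The adaptors that all these receptors share were detected 8 of 8, led by Grb2 at 121 ± 3.05 TPM, Pik3r1 at 95.3 ± 5.80 TPM and Ptpn11 at 74.4 ± 1.59 TPM.

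In the PDGF family, Pdgfa was the main ligand and both receptors were present. Pdgfa, which acts through Pdgfra and in the nervous system is known for driving oligodendrocyte precursors, was at 64.9, 67.8, 60.5, 62.1 and 62.8 TPM in replicates 1 to 5. Pdgfc, a ligand secreted in latent form and freed by tissue plasminogen activator, was at 13.7 ± 0.976 TPM. Pdgfb, the ligand that recruits pericytes, was at 3.14, 3.89, 5.67, 5.28 and 4.87 TPM, with replicates 1 and 2 below the other 3. Pdgfd, the second latent ligand, was at 1.01 ± 0.228 TPM and reached 1 TPM in 3 of 5 libraries. No neighbouring ligands in this order overlapped in range, and Pdgfa was 4.32- to 5.16-fold above Pdgfc and 10.5-fold or more above Pdgfb in each library.

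Pdgfrb, the receptor of pericytes and fibroblasts, was at 33.3, 39.1, 37.7, 38.6 and 35.8 TPM in replicates 1 to 5. Pdgfra, which marks fibroblasts of the nerve and its sheath, was at 26.4, 21.2, 19.5, 22.1 and 20.7 TPM. Replicate 1 was at once the lowest library for Pdgfrb and the highest for Pdgfra. Pdgfrb stayed above Pdgfra in all 5 libraries without overlap and was 1.68-fold higher (log2 ratio 0.75 ± 0.0921, SE, limma adjusted p = 9.07e-09). With each gene's own spread, the limma adjusted p was 0.00275. Of the 5 members tested against Pdgfra, 2 were higher, Pdgfrb and Pdgfa, and 3 were lower, Pdgfc, Pdgfb and Pdgfd. Over all genes 31.8% were higher and 62.7% lower. All 5 calls were kept with each gene's own spread. Pdgfa was 2.90-fold above Pdgfra in TPM, but in scaled reads it was below it, at a log2 ratio of -0.56, since the leading transcript of Pdgfra is 6532 bases long and that of Pdgfa 1784. Pdgfc, with a log2 ratio of -0.67 in TPM, was at -2.17 in scaled reads.

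Of the 8 genes of the mural and smooth muscle list, 6 were detected, beside 41.3% of all genes in the table. Mcam at 347 ± 34.5 TPM, Tagln at 150 ± 33.2 TPM and Acta2 at 110 ± 33.0 TPM, adhesion and contractile genes that other cell types also make, were above Pdgfrb. Cspg4, a pericyte and glial precursor marker, was at 5.85 ± 0.426 TPM, and the muscle genes Myh11 and Des at 4.37 ± 0.737 and 3.85 ± 0.631 TPM. The pericyte markers Rgs5 at 0.530 ± 0.620 TPM and Kcnj8 at 0.517 ± 0.179 TPM were undetected. All 7 genes of a list of factor-cleaving proteases, which includes the protease cofactor Ccbe1, were detected. Plat, tissue plasminogen activator, which frees Pdgfc, was at 572 ± 20.1 TPM. Furin, a processing protease of the secretory pathway, was at 41.2 ± 1.98 TPM, and Plau, urokinase, which frees Pdgfd, at 35.1 ± 4.59 TPM.

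Of the VEGF ligands, only Vegfb, Vegfc and Vegfd are members, so what follows covers these 3 ligands and the 3 receptors, with Vegfb at the top and the receptors near the floor. Vegfb, which binds Flt1 and is known more for effects on metabolism and neuron survival than for vessel growth, was at 85.6, 86.2, 74.8, 84.4 and 80.5 TPM in replicates 1 to 5. Vegfc, a lymphatic growth factor, was at 2.59, 1.81, 1.91, 2.92 and 2.29 TPM. Vegfd, the other ligand of Flt4, was at 1.84, 0.997, 1.53, 1.37 and 0.880 TPM and missed detection through replicates 2 and 5. Vegfb was 28.0- to 45.1-fold above Vegfc and held 95.8% ± 0.743 of the summed level of these 3 ligands. Vegfc was above Vegfd in all 5 libraries, by 1.23- to 2.44-fold, although their ranges overlapped.

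None of the 3 VEGF receptors was detected. Flt1 was at 0.706, 1.07, 0.942, 0.876 and 0.720 TPM in replicates 1 to 5, and only replicate 2 passed 1 TPM. Kdr, the main signalling receptor of blood vessels, was at 0.150, 0.247, 0.147, 0.378 and 0.520 TPM, resting on 121 estimated reads in all. Flt4, the lymphatic receptor, was at 0.0793, 0.255, 0.169, 0.0702 and 0.110 TPM on 41 reads. Flt1 was above Kdr in every library, while Kdr and Flt4 exchanged places between libraries. Summed over the 3 genes, the receptors came to 1.29 ± 0.229 TPM, beside 85.9 ± 4.92 TPM for the 3 ligands.

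Of the 5 VEGF members tested against Flt1, Vegfb, Vegfc and Vegfd were higher and Kdr and Flt4 lower; over all genes 73.2% were higher than Flt1 and 21.2% lower. Vegfb was 86.3-fold above Flt1 in TPM (log2 ratio 6.43), with a limma adjusted p of 3.01e-06 when each gene's own spread was used, and its log2 ratio in scaled reads was 4.11. Vegfc was 2.49-fold above Flt1 and Vegfd 1.45-fold in TPM; in scaled reads both were below it, at log2 ratios of -0.75 and -0.94, as the leading transcript of Flt1 has 6848 bases against 1596 for Vegfc and 1494 for Vegfd. The Vegfd call (limma adjusted p = 0.0025) also ended without replicate 1 (adjusted p = 0.0759), and with each gene's own spread (adjusted p = 0.0835).

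Markers of endothelium were uneven in the same libraries: 5 of 8 were detected, beside 41.3% of all genes in the table. Their summed level ran from 34.1 to 37.0 TPM. Pecam1 at 0.680 ± 0.146 TPM, Emcn at 0.293 ± 0.232 TPM and Cldn5 at 0.0967 ± 0.0695 TPM were undetected. Cdh5 was at 18.6 ± 1.05 TPM and Esam at 7.59 ± 1.59 TPM. The other detected markers were Tek at 4.90 ± 0.597 TPM, Tie1 at 1.87 ± 0.432 TPM and Egfl7 at 1.79 ± 0.416 TPM. Of the 3 lymphatic markers, Prox1, the transcription factor that defines that lineage, was undetected at 0.156 ± 0.0298 TPM, while Lyve1 at 39.3 ± 6.25 TPM and Pdpn at 149 ± 9.81 TPM, also made by macrophages and by fibroblasts and glia respectively, were detected. All 7 genes of a list of VEGF and vessel partners, which shares Tek and Tie1 with the endothelial list, were detected. Highest were the co-receptors Nrp2 at 33.4 ± 1.32 TPM and Nrp1 at 26.7 ± 2.82 TPM, which also serve semaphorins in axon guidance. The Flt1 ligand Pgf followed at 8.80 ± 1.22 TPM.

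Kdr and Pdgfra have only Kit between them among protein-coding genes in GRCr8. The level rose from 0.288 ± 0.160 TPM at Kdr to 11.4 ± 0.864 TPM at Kit, and was still higher at Pdgfra. Kit is a stem cell factor receptor also made by some sensory neurons. The promoter windows of the outer genes are shown because their CpG content runs opposite to their level. Each covers 250 bases before to 50 bases after the start site as RefSeq gives it for GRCr8, 5′ to 3′ on the strand of the gene, with every CpG in capitals. Which start sites these cells used was not tested. The Kdr window, chr14:32571813-32572112 on the plus strand, holds 18 CpG, and the Pdgfra window, chr14:33408467-33408766 on the minus strand, holds 5.
Kdr: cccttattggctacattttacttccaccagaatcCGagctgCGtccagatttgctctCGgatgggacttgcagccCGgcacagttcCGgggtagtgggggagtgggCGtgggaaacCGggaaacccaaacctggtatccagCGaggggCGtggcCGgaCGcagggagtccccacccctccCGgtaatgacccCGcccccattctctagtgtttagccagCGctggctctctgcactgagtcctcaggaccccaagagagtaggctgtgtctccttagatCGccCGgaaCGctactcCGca
Pdgfra: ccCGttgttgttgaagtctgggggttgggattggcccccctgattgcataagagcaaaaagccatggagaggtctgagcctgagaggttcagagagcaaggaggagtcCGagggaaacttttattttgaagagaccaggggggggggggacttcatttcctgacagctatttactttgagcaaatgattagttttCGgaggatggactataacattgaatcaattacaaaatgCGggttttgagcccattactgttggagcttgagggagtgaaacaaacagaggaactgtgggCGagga

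Both IGF ligands were detected. Igf1, made by macrophages and connective tissue cells and a survival and growth factor for sensory neurons, was at 31.5, 24.3, 37.4, 37.8 and 38.3 TPM in replicates 1 to 5. Igf2, mainly a fetal and perinatal growth factor, was at 33.2, 30.7, 26.8, 30.2 and 30.8 TPM. Igf1 was the higher in 3 of 5 libraries, with ratios of Igf1 to Igf2 from 0.794 to 1.40 in TPM, so the order was not settled (exact sign-flip permutation p = 0.5 after adjustment over 21 pairs, two-sided). With 5 libraries that test has 32 sign patterns, of which 2 are as extreme as equal signs throughout, so it cannot pass 0.05, and for each pair the range over libraries is what is described. The low Igf1 value of replicate 2 fell in the library with the lowest macrophage sum, and the highest, in replicate 5, in the library with the highest. The part of macrophages in the Igf1 level was not tested.

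Of the IGF receptors, Igf2r was the higher in TPM. Igf2r, which clears IGF2 and carries lysosomal enzymes rather than signalling as a kinase, was at 56.2, 54.7, 55.2, 54.2 and 53.7 TPM in replicates 1 to 5. Igf1r, the receptor kinase that transmits the signal of both ligands, was at 7.86, 8.53, 8.10, 7.55 and 7.54 TPM. Igf2r was 6.85-fold above Igf1r (log2 ratio 2.78 ± 0.0339, SE, limma adjusted p = 1.04e-12) and 1.69- to 2.06-fold above its ligand Igf2. With each gene's own spread, the limma adjusted p against Igf1r was 6.32e-07. Both receptors were steady, and neither range touched the other.

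The IGF binding proteins were the most abundant class of all members, with 6 of 7 detected. Igfbp4, an inhibitory binding protein that a protease removes from IGFs, was at 171, 142, 134, 160 and 138 TPM in replicates 1 to 5. Igfbp7, a matrix protein that binds IGFs only weakly, was at 112, 133, 129, 154 and 131 TPM. Igfbp4 was above Igfbp7 in all 5 libraries, by 1.03- to 1.52-fold, with overlapping ranges. Igfbp3, the main carrier of IGFs in serum, was at 98.2, 98.7, 90.7, 103 and 94.5 TPM. Igfbp5, a matrix-bound form prominent in connective tissue and muscle, was at 74.6, 84.0, 86.5, 103 and 89.6 TPM. Igfbp3 exceeded Igfbp5 by 1.003-fold at the least and 1.32-fold at the most, so their order held in all 5 libraries with next to no margin in replicate 4.

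The lower binding proteins varied more. Igfbp6, which prefers IGF2, was at 51.7, 42.0, 30.5, 41.9 and 32.6 TPM in replicates 1 to 5, 2.17- to 4.23-fold below Igfbp7. Igfbp2, a form of fetal tissue and glia, was at 8.94, 11.1, 7.76, 7.68 and 6.12 TPM. Igfbp6 was highest in replicate 1 and Igfbp2 in replicate 2, the 2 libraries with the highest mural sums. Those sums are mostly Mcam, Tagln and Acta2, which other cell types also make. The part of mural cells in the Igfbp6 and Igfbp2 levels was not tested. Igfbp1, a liver and decidua protein, was undetected at 0.0552 ± 0.0431 TPM, on 5 reads over the libraries.

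Against Igf1r, 8 of the 9 other IGF members that entered the test were higher and 0 were lower, beside 51.7% higher and 45.5% lower over all genes. The same 8 were called with each gene's own spread. The highest were Igfbp4, 18.5-fold above Igf1r, Igfbp7 at 16.4-fold, Igfbp3 at 12.1-fold and Igfbp5 at 10.9-fold. Igf1 was 4.18-fold and Igf2 3.79-fold above it. Igfbp2 was the one member not called, at a log2 ratio of 0.04 ± 0.0880 (SE, limma adjusted p = 0.638) and higher in 3 of 5 libraries. Igf1r has the longest leading transcript of the members, 12353 bases, and in scaled reads all these ratios were smaller. The log2 ratios of Igfbp4, Igfbp7, Igfbp3 and Igfbp5 were then 1.58, 0.22, 1.15 and 0.33, in place of 4.21, 4.03, 3.60 and 3.44 in TPM. Igf2r was the highest in scaled reads, at 2.31, with Igf1 at 0.60 and Igf2 at 0.12. Igfbp2 and Igfbp6 were below Igf1r on that scale, at log2 ratios of -3.47 and -1.99.

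Set against their ligands, the 7 binding proteins summed to 513 ± 34.6 TPM and the 2 ligands to 64.2 ± 5.53 TPM. The ratio was 7.98, 9.28, 7.45, 8.37 and 7.13 in replicates 1 to 5, 8.04 ± 0.843 on average (SD, n = 5), with the same sign in all 5 libraries, the most extreme of the sign patterns. Replicate 2 had the highest ratio and the lowest Igf1. The ratio fell to 5.98 without Igfbp7 and to 3.07 in scaled reads, where the long Igf1 transcript of 6857 bases counts for more, and stayed above 1 in both.

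Partners of the IGF family were detected in 11 of the 17 cases measured, beside 41.3% of all genes in the table. Pappa, of the same list, was not analysed here. Htra1, a secreted protease that cleaves IGF binding proteins among other matrix targets, was at 870 ± 56.1 TPM. Stc2, an inhibitor of the protease that cleaves Igfbp4, was at 60.3 ± 2.16 TPM, and the receptor adaptor Grb10 at 38.1 ± 0.963 TPM. The lowest of the list were Irs4 at 0.00661 ± 0.00972 TPM, Igfals, the serum partner of Igfbp3, at 0.0746 ± 0.0346 TPM, and insulin gene Ins1 at 0.129 ± 0.177 TPM.

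Members of this class lie in neighbouring pairs in GRCr8 whose levels were far apart. Igfbp2 at 8.31 ± 1.84 TPM adjoins Igfbp5 at 87.5 ± 10.2 TPM, 7.54- to 14.4-fold higher; the Igfbp2 window holds 20 CpG and the Igfbp5 window 11, so there the gene with fewer was the higher. Igfbp1 adjoins Igfbp3 with no protein-coding gene between them, and these were undetected and at 97.0 ± 4.64 TPM. The windows of this pair are shown in the same form as above, as in this pair the gene with more CpG was the higher. The Igfbp1 window, chr14:86261027-86261326 on the plus strand, holds 13 CpG and is 54.0% G or C; the Igfbp3 window, chr14:86277895-86278194 on the minus strand, holds 36 and is 71.7%.
Igfbp1: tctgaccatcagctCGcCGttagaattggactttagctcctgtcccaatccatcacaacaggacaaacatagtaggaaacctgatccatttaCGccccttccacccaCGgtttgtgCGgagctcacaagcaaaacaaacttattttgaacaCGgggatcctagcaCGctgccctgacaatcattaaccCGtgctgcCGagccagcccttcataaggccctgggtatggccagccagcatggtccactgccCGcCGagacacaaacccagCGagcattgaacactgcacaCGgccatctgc
Igfbp3: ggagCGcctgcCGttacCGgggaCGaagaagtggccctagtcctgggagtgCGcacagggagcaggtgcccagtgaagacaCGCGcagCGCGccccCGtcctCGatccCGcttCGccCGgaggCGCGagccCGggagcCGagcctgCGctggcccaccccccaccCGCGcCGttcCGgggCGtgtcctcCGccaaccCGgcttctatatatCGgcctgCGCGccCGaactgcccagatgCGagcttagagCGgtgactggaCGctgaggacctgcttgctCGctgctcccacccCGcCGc

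Promoter windows of this kind were found for 39 of the 45 members, 40 windows in all because Igf2 has a pair of them; none was given for Fgfr1, Fgf17, Fgf19, Fgf20, Fgf23 and Pdgfrb. The median window of detected members held 19 CpG and that of undetected members 14.5. Over all genes the medians were 20 for detected and 5 for undetected genes, so undetected members had more CpG than undetected genes at large. The highest counts were 50 at Igf1r and 48 at Fgfr2 and Fgf18, and the lowest were 3 at Vegfd and 5 at Fgf1 and Pdgfra. The letters GGGCGG, on either strand, occurred in 25 of the 40 windows and in 33.1% of all windows. By detection, the share was 57.7% for detected members beside 60.7% for all detected genes, and 71.4% for undetected members beside 19.6% for all undetected genes. TATAAA, on either strand, occurred in 7, those of Fgf5, Fgf7, Fgf16, Fgf21, Vegfd, Igfbp4 and Flt1, and in 14.2% of all windows. None of the 4 windows printed here holds TATAAA, and only that of Kdr holds GGGCGG.

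**Figure D3:**
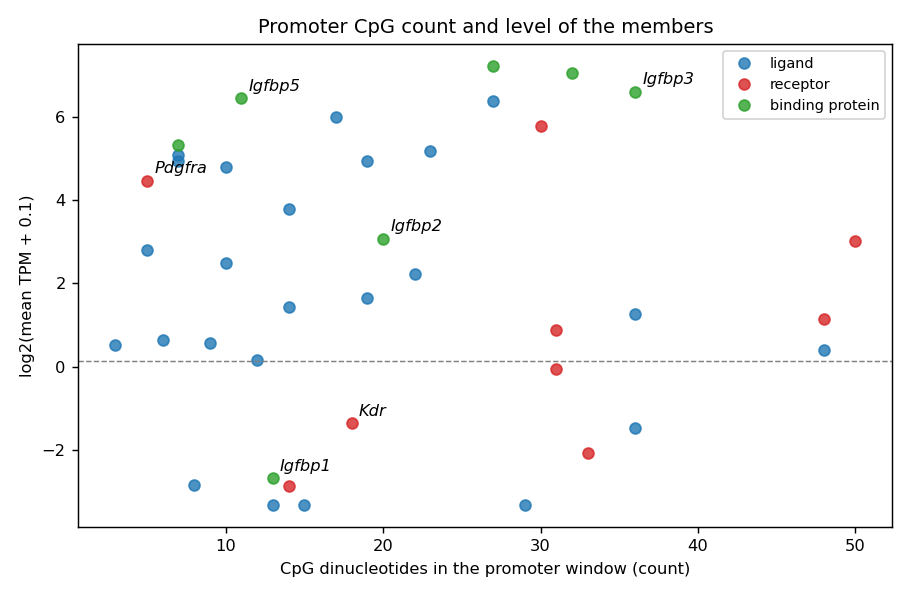
CpG count of the promoter window (x) against log2(mean TPM + 0.1) (y) for 39 members in 40 windows; blue points are ligands, red receptors and green binding proteins, and the dashed line marks 1 TPM. Igfbp3 (36 CpG) lies above Igfbp1 (13 CpG), while Kdr (18 CpG) lies below Pdgfra (5 CpG).

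Levels of 8 of the 27 detected members differed at least 1.5-fold between their lowest and highest library, beside 9.09% of all detected genes. These were Fgf10 at 2.29-fold, Igfbp2 at 1.81-fold, Pdgfb at 1.80-fold, Igfbp6 at 1.70-fold, Fgf7 at 1.63-fold, Vegfc at 1.61-fold, Igf1 at 1.57-fold and Fgf22 at 1.54-fold. Among members with a mean of at least 10 TPM, 2 of 16 varied this much, Igfbp6 and Igf1, beside 2.18% of all such genes. Counting error alone would give Fgf10 a coefficient of variation of 25.8%, against 33.9% measured. For Igf1 these values were 2.14% and 17.7%, for Igfbp6 5.25% and 21.4%, and for Pdgfb 9.46% and 22.7%. The steadiest members were Igf2r, 1.05-fold between extremes, and Fgfr1, 1.06-fold.

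The libraries that were high or low differed from gene to gene. Replicate 2 was the lowest for Igf1, Fgf22 and Vegfc and the highest for Fgf10 and Igfbp2. Pdgfb and Fgf7 were lowest in replicate 1, and Igfbp6 was highest there. Without replicate 2 the count fell to 4 and without replicate 1 to 5. The summed macrophage and mural lists varied 1.58-fold and 1.44-fold over the same libraries; their part in the spread of these members was not tested.

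**Figure D4:**
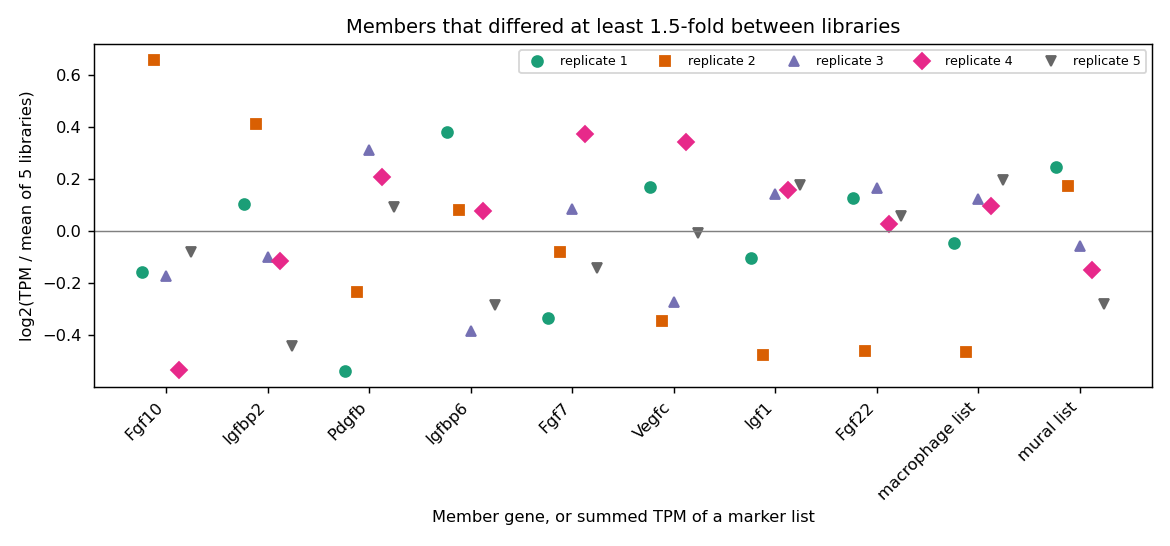
Level of the 8 members that varied at least 1.5-fold, and the summed TPM of the macrophage and mural marker lists, as log2 of each library over the mean of the 5 libraries, with a symbol for each replicate. Replicate 2 lies lowest for Igf1, Fgf22, Vegfc and the macrophage list, and highest for Fgf10 and Igfbp2.

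Several members are made as more than 1 transcript, and the leading form differed in weight. Pdgfra was mostly its 6532-base transcript, with 76.6% ± 1.97 of the summed transcript TPM of 7, and Pdgfrb its 5031-base transcript, with 88.4% ± 0.694. Igf2 was led by a 3519-base form at 87.6% ± 2.93 and Pdgfa by a 1784-base form at 72.8% ± 4.31. Vegfb was shared between forms of 1355 bases at 42.7% ± 2.22 and 1464 bases at 39.4% ± 3.43. Igf1 likewise had forms of 6857 bases at 43.7% ± 2.51 and 1827 bases at 34.9% ± 2.70. Pdgfb was divided between transcripts of 1723 and 2144 bases, 56.7% and 43.3% with an SD of 4.71. Fgf22 was divided between a 7862-base form at 51.6% and a 489-base form at 48.4% of summed transcript TPM, with an SD of 11.4. The longer form was at 44.8%, 68.5%, 44.8%, 58.3% and 41.7% in replicates 1 to 5, so the order of the forms changed between libraries. This longer form has no gene name in the reference used, was matched through its TPM and carried 96.9% of the reads of the gene. The leading transcripts of Igf1r (95.9% of its reads) and Fgfr3 (4220 bases, 71.1% of its reads) were matched in the same way. The gene TPM values do not rest on that match, but the scaled reads do. With named transcripts alone, the log2 ratio of Igf2r to Igf1r rose from 2.78 to 6.66 and that of Fgfr3 to Fgfr1 went from -5.41 to -7.48. Named transcripts also hold only part of Fgfr1: the ratio of Fgf1 to Fgfr1 went from -3.48 to -2.90, though all Fgf1 transcripts are named.

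Overlap with other genes may limit some levels, because the strand setting of the quantification is not given in the sources used here. In GRCr8, Fgf2 overlaps Nudt6, which was at 23.4 ± 0.872 TPM, and Igfbp7 overlaps Polr2b at 36.3 TPM. Fgf1 overlaps Arhgap26 at 4.05 TPM, Fgf7 overlaps Fam227b at 1.61 TPM, and Fgf17 overlaps Npm2 at 0.290 TPM. In each case the second gene was above 25% of the TPM of the first. These are overlaps of whole gene spans, and whether the transcripts share sequence was not checked. The level of the first gene may therefore be uncertain.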

How the data were processed

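Poly-A RNA of 5 samples of cultured rat DRG cells was sequenced; per the labels' protocols RNA was extracted with TRIzol and libraries were made with the NEBNext Ultra II kit. The submitters' processing notes name Salmon 1.5.1, Trim Galore 0.6.6, cutadapt 2.8 and build mRatBN7.2. The strand used in counting is not given in the sources used here. A gene-level TPM table of 33014 genes was deposited by the authors. Their quantification files hold, per the file headers, both TPM and the estimated count for each of 98811 transcripts. TPM is relative, with a total of 1000000 per library, and depends on the gene models, many of which, for the FGFs, are short.

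Gene TPM was used throughout unless stated. A RefSeq table of GRCr8 gave a gene to 67314 transcripts (68.1%). For 35 members the named transcripts gave the gene TPM almost exactly in every library. For 8 more, unnamed transcripts whose TPM equalled the shortfall in every library within 2e-05 TPM were added. Fgfr1 and Fgfr2 stayed partial. Ratios are log2((TPM a + 0.1)/(TPM b + 0.1)), which understates ratios of low genes. Fits against a receptor used limma 3.58.1 in R 4.3.3 (intercept only, empirical Bayes with trend, two-sided, Benjamini-Hochberg over 18987 genes of mean TPM at least 0.1), called at an adjusted p under 0.05. For 21 pairs and the binding protein ratio, an exact sign-flip test was run, adjusted over the pairs. Python 3.11.15 and scipy 1.17.1 served for the rest. Intervals (exact Poisson, 95%) and the 3-read floor cover counting error only, since the files give no molecular identifiers and reads of one molecule can repeat.

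Every detected member is named, as are undetected members, the 3 highest detected and up to 3 lowest undetected genes of each partner list, and the genes of each pair; overlapping and neighbouring genes and single marker genes were chosen after their values were seen. Members and lists were chosen with earlier results of these data known. Alternatives covered the pseudocount, filters, detection and variation thresholds, the variance model, reads scaled to library size, transcript sums and leaving out each replicate.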

Additional observations from a re-analysis of the deposited data

Results flagged for a closer look

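For 3 of the 27 detected members (11.1%), 1 library stood apart from the other 4 by Dixon's criterion for 5 samples, a gap to the nearest value of over 0.71 of the whole range. The same held for 761 of all 13635 detected genes, 5.58%, and chance flags about 1 in 20. Fgf9 was at 4.36 TPM in replicate 1, with a gap of 0.755 of the range, below the other libraries. Fgf10 was at 4.13 TPM in replicate 2 (0.713 of the range), above the others, and Fgf22 at 2.20 TPM in the same replicate (0.741 of the range), below them.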

How the results depend on the processing

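In estimated reads scaled to library size, 1 PDGF member was higher than Pdgfra in place of 2, 1 VEGF member was higher than Flt1 and 4 lower in place of 3 and 2, and 2 IGF members were lower than Igf1r in place of 0; these reads are not divided by length. With tests limited to a mean of at least 1 TPM, 0 VEGF members were lower than Flt1, since Kdr and Flt4 were not tested. With no filter, 1 IGF member, Igfbp1, was lower than Igf1r. Detected members numbered 31 at a threshold of 0.5 TPM, 22 at 2 TPM, 19 at 5 TPM and 24 with named transcripts alone, in place of 27. The share of all genes at these settings was not computed. Of 209 alternatives over 21 pairs, 206 kept the direction; Fgf1 against Fgf2 turned to 0.39 and Fgf7 against Fgf10 to 2.20 (log2) in scaled reads, and Fgf5 against Fgf2 to -0.066 with named transcripts alone. The binding protein to ligand ratio moved to 3.07 in scaled reads and to 5.98 without Igfbp7, an alternative chosen after seeing the data, as were each gene's own spread and matched transcript sums. The number of members that varied between libraries was 16 with a looser required ratio, 1 at a ratio of at least 2, 2 at a mean of at least 10 TPM, and 4 to 8 when single replicates were left out. With named transcripts alone, Vegfd lost its call against Flt1 (log2 ratio -0.11, limma adjusted p = 0.667), and all 9 IGF members were higher than Igf1r. Scaled reads could not be used against Fgfr1 or for Fgfr2, whose reads were partial. No paired analysis was possible because all 5 libraries form 1 group. Members with under 100 reads in all, such as Fgf10, Fgf21 and Flt4, are limited by depth.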
